A study of Mus musculus with 9 samples.

Results

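Mouse embryos in which Hdac1 and Hdac2 were knocked down together were compared with control embryos at E2.75, the compacted morula stage, across every gene with a sufficient value. The comparison used 6 of the 9 libraries of the study, 3 labelled Hdac1/2 cKD (co-knockdown) and 3 labelled NC (non-specific control). It covered the 13343 of 20087 named genes that had a normalised count of 10 or more in at least 3 of the 9 libraries. Fertilised eggs of the B6D2F1 strain background, a hybrid mouse cross, received either siRNA against both genes or a control siRNA by injection, and every library was made from a pool of 60 whole embryos. One more group, Sin3a KD, received siRNA against Sin3a, a scaffold protein of one HDAC1/2 complex, and was used where a change in Hdac1/2 cKD was set against another knockdown. All 9 libraries therefore come from injected embryos of a single strain background and stage, the control is labelled wild type, and no uninjected group was analysed here. An siRNA lowers an RNA without deleting the gene and acts in all cells of the embryo.

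HDAC1 and HDAC2 are closely related enzymes that remove acetyl groups from histone tails. They work as the catalytic subunits of the SIN3, NuRD, CoREST and MiDAC complexes, which are brought to chromatin by DNA-binding proteins. Acetylated histones are common at active promoters and enhancers, so the deacetylases are best known as co-repressors, and they are also found at transcribed genes. In the days before implantation the embryo exchanges maternal RNA for its own, feeds at first on pyruvate and then increasingly on glucose, and divides into trophectoderm and inner cell mass.

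The libraries held normalised counts that summed to between 11.9 M and 13.5 M. Hdac1 was at 16.9% and Hdac2 at 13.3% of their NC means in Hdac1/2 cKD, and no library overlapped between the groups for either gene. A predicted gene with a near-identical sequence to Hdac1 (Gm10093) may share its reads. NC replicate 3 stood apart from the other libraries on the leading component of all tested genes, at -96.6 against -16.8 and -20.7 for the other NC libraries, and 28.4% of its genes were listed at 0, against 15.4% and 23.4%. The lane in the library names also differed, and only lane 2 and lane 3 held both groups. Differences inside each lane are given beside some of the gene groups below. Where they are left out, the lanes did not always agree. Of 16 morula and early blastocyst markers all were measured, and 10 were lower and 1 higher in Hdac1/2 cKD. Few markers of other cells a pool could hold passed the filter on low values, namely 5 for cumulus and granulosa cells, 2 for sperm, 3 for oviduct and 3 for blood, and none was called in limma (1, 0, 1 and 1 of them higher and 1 cumulus marker lower at an unadjusted p under 0.05). The summed level of 8 blood markers was 0.000525% to 0.000826% of the NC libraries and 0.00105% to 0.00146% of the Hdac1/2 cKD libraries, mostly Cd68, and its part in the results was not tested. The labels do not say whether the 3 pools of a group came from separate matings or injection days, so p-values cover only the spread among these pools, which may be technical. In pools of whole embryos, fewer cells of a type and less RNA per cell cannot be told apart. Higher oviduct markers numbered 1 without NC replicate 1. Higher blood markers numbered 1 without NC replicate 3.

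Across the 13343 genes, 1042 were higher and 1041 lower in Hdac1/2 cKD than in NC at an adjusted p below 0.05 in limma (7.81% and 7.80%, together 15.6%). The genes that rose had lower counts than those that fell. Their median was 161 normalised counts in NC and 375 in Hdac1/2 cKD, and the median change was 1.16 on the log2(value + 1) scale on which all fold changes here are given. The genes that fell had a median of 1318 in NC and 815 in Hdac1/2 cKD, with a median change of -0.64. Of the genes that rose 605 did so by 1 or more on the log2 scale, and 223 of those that fell did so. Inside lane 2 the medians of the higher and lower genes were 1.04 and -0.61, and inside lane 3 they were 1.19 and -0.64. These genes were called on the same libraries, so lane medians away from 0 follow from the choice. All tested genes had medians of 0.01 and 0.02. The even split depends on the scale: with all libraries scaled to equal totals 1387 genes were higher and 676 lower, and the median of all genes moved from 0.03 to 0.15. With lane as a factor 793 were higher and 657 lower. The groups did not overlap for 4410 genes (33.1% of those tested). Leaving out any one Hdac1/2 cKD library lowered the higher calls to between 608 and 646 and the lower calls to between 640 and 664.

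The change varied with level, taken here as the normalised count, which also grows with transcript length. When the tested genes were divided into 10 bins of equal size by their mean level over the 6 libraries, the median change fell at every step, from 0.67 in the lowest bin (median level 7.11 normalised counts) through 0.09 in the fifth (160.4) to -0.15 in the highest (3726). Genes called higher were most frequent in the middle bins, at 11.2% in the fifth, and made up 4.94% of the highest bin. The share of genes called lower was 0.450% in the lowest bin and 23.3% in the highest. The same slope was present when genes were binned by their level in the Sin3a KD libraries, which enter neither side of the comparison: 0.67 in the lowest bin and -0.16 in the highest. Sin3a KD against NC had medians of 0.65 and -0.12 in the lowest and highest bins by NC and Hdac1/2 cKD level. In the bins by Sin3a KD level those medians were -0.15 and -0.08. Whether the slope is particular to Hdac1/2 cKD was not tested. In the lowest bin the size of the shift rested in part on NC replicate 3, without which the median there was 0.38, while the highest bin stayed at -0.15. Inside lane 2 the lowest bin had a median of 0.32 and inside lane 3, which holds NC replicate 3, of 0.97.

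**Figure D1:**
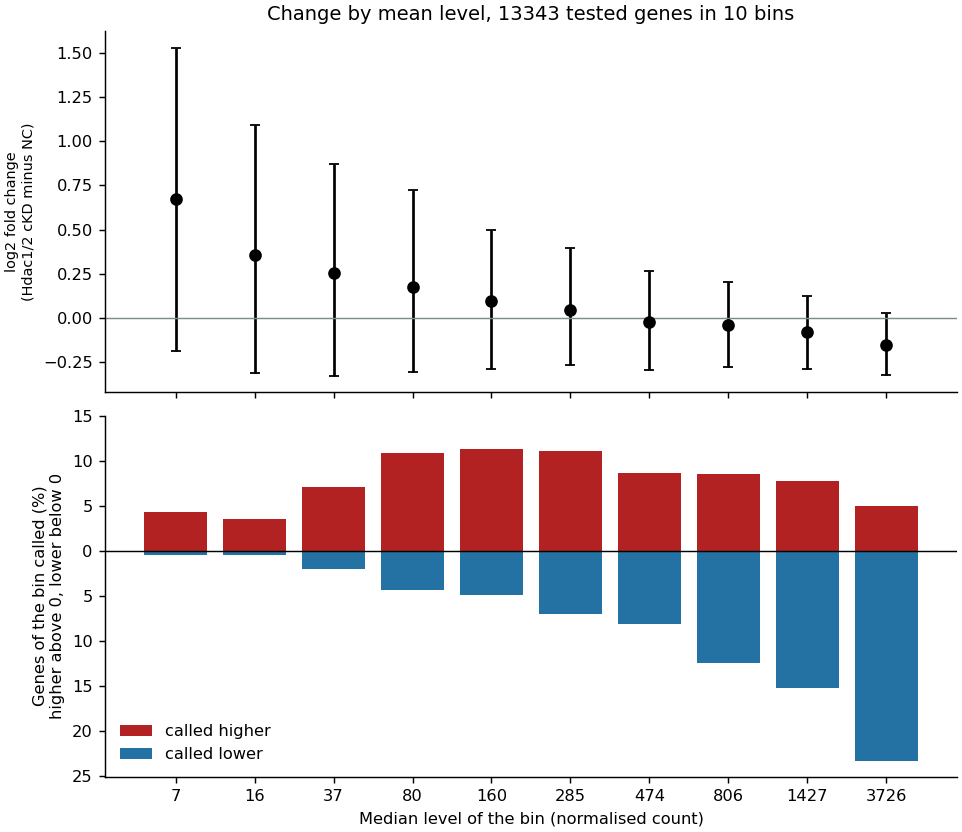
Change against expression level. The upper panel plots, for 10 bins of about 1334 genes ordered by mean level (x axis, median normalised count of the bin), the log2 fold change of Hdac1/2 cKD minus NC as the median (points) and quartiles (bars). The lower panel plots the percentage of genes called higher and lower in each bin. The median falls from 0.67 to -0.15 from left to right, and the share called lower climbs to 23.3%.

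Genes of glycolysis rose together. Of the 22 measured genes that carry glucose into the cell and convert it to pyruvate and lactate, 10 rose and none fell (1 at an unadjusted p under 0.05 in limma), and the median change was 0.65. Together the listed glycolysis genes took up 0.177% to 0.190% in NC and 0.281% to 0.294% in Hdac1/2 cKD, so the groups did not overlap. The steps that rose ran along the pathway: glucose uptake (Slc2a1), glucose-6-phosphate isomerase (Gpi1), phosphofructokinase (Pfkl), triosephosphate isomerase (Tpi1), glyceraldehyde-3-phosphate dehydrogenase (Gapdh), phosphoglycerate kinase (Pgk1), both enolases (Eno1 and Eno2), pyruvate kinase (Pkm) and lactate dehydrogenase (Ldha). Inside lane 2 the median of the 22 genes was 0.60, and inside lane 3 it was 0.51.

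Eno2, the enolase better known from neurons, rose most among those not near-identical to other loci, with values of 197, 393 and 433 in NC and 1227, 1119.6 and 1098 in Hdac1/2 cKD (log2 1.83, SE 0.27, adjusted p = 0.00103). Gpi1 stood at 522, 580.5 and 629.6 in NC and 858, 972 and 913 in Hdac1/2 cKD (log2 0.66, SE 0.13, adjusted p = 0.00457). Pfkl stood at 265, 334 and 214 in NC and 552, 453 and 482 in Hdac1/2 cKD (log2 0.89, SE 0.18, adjusted p = 0.00502). No control library reached the knockdown libraries for any of these. Ldha, Gapdh, Pgk1, Eno1, Tpi1 and Pkm have processed copies elsewhere in the genome, so how their reads were divided is uncertain. Ldha had the largest fold, with 256, 246 and 418 in NC and 2380.1, 2739 and 3444 in Hdac1/2 cKD (log2 3.24, SE 0.21, adjusted p = 2.52e-06). Pkm was the one called member that did not keep its call in every alternative setting. Of the 22 genes 6 differed between Hdac1/2 cKD and Sin3a KD in the same limma fit, among them Ldha (log2 2.30, SE 0.21, adjusted p = 1.91e-05) and Gapdh (log2 2.07, SE 0.19, adjusted p = 2.18e-05). Pfkl had a mean of 611 in Sin3a KD, and the test between the knockdowns did not call it (log2 -0.30, SE 0.18, adjusted p = 0.284).

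The bases upstream of 3 of these genes are shown because hypoxia-inducible factor, of which Hif1a encodes the regulated subunit, is known to act on glycolytic promoters. Its core motif is A or G followed by CGTG, and only the form ACGTG was searched. The RefSeq promoter table (GRCm38.p6) held all 10 genes that rose. In the 250 bases before the annotated start, printed 5′ to 3′ on the gene's strand, ACGTG on either strand is in capitals. Overlapping matches on the 2 strands merge into one run of capitals, as in CACGTG.

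Ldha, chr7:46845554-46845803, forward strand: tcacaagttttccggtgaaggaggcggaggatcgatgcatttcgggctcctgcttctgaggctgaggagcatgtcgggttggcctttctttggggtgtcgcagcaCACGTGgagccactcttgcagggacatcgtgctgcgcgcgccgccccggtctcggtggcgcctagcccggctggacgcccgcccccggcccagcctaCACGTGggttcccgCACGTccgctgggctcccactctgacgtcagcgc

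Pgk1, chrX:106186850-106187099, forward strand: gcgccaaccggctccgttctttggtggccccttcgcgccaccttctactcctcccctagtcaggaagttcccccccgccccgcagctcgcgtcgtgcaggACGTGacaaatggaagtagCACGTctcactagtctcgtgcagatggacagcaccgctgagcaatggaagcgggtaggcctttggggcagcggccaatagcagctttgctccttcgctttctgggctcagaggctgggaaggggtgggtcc

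Gapdh, chr6:125165774-125166023, reverse strand: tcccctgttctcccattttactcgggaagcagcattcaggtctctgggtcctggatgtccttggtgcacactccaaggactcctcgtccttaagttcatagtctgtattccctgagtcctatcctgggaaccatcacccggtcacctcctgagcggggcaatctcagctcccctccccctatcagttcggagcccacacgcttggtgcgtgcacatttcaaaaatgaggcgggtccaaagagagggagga

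Ldha held 5 matches to ACGTG and Pgk1 held 2, while the Gapdh window held 0, and Gapdh rose by 2.07 on the log2 scale. Matches to the form GCGTG, which the Gapdh window also holds, were not counted. Of the 10 glycolysis genes that rose, 3 had a match (30%), including Slc2a1 with 1. Among the glycolysis genes not called, 6 of 11 with a promoter in the table had one (54.5%). ACGTG occurred in 21.7% of the 9721 tested genes' promoters in the table and in 16.6% of all 27025 promoters over the same length.

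Outside glycolysis, hypoxia-inducible genes moved in both directions. Hif1a itself rose, with values of 85.1, 176 and 125 in NC and 561, 559 and 506 in Hdac1/2 cKD (log2 2.13, SE 0.25, adjusted p = 0.000140), so that the lowest knockdown library was well above the highest control. On the list of the factor and its known targets outside glycolysis, 24 genes with Hif1a itself included, 3 were higher and 5 lower, with a median of -0.08. Mxi1, a MAX partner that opposes MYC, rose from 226 ± 9.02 to 603 ± 48.0, and Ddit4, an inhibitor of mTOR signalling, was the other target called higher. P4ha1, a collagen prolyl hydroxylase, fell from 1321 ± 126 to 640.2 ± 56.2 (log2 -1.04, SE 0.14, adjusted p = 0.000310). Bnip3l, a mitophagy receptor, fell from 4547 ± 302 to 3271 ± 242. The count of lower targets was 2 without NC replicate 1 or Hdac1/2 cKD replicate 1 or 3, 3 without NC replicate 2 or 3, 2 with lane in the model and 3 with equal totals. Higher genes of that list numbered 5 without NC replicate 2.

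Few genes of pyruvate entry, the citrate cycle and oxidative phosphorylation passed the test, while a larger share did in the pentose phosphate branch. Among 31 genes of pyruvate entry and the citrate cycle none rose (1 at an unadjusted p under 0.05 in limma) and 3 fell, all of which bring pyruvate into the cycle. Pdhb, the beta subunit of pyruvate dehydrogenase, fell from 3692 ± 201 to 2443 ± 118 (log2 -0.60, SE 0.09, adjusted p = 0.00110), and the calls for Pdha1 and the pyruvate carrier Mpc2 were lost in most alternative settings. The count was 1 without NC replicate 1 or Hdac1/2 cKD replicate 1, 2 or 3, 1 with lane in the model and 1 with equal totals. Of 52 nuclear genes of oxidative phosphorylation 2 rose and 1 fell, with a median of -0.04. Atp5g3, a membrane-ring subunit of ATP synthase, was the one of these called in every setting, from 1821 ± 172 to 2708 ± 141 (log2 0.58, SE 0.10, adjusted p = 0.00259). None of the 13 mitochondrially encoded genes was called in limma (1 higher at an unadjusted p under 0.05), and the closest was mt-Nd4l (log2 0.33, adjusted p = 0.0622). In the pentose phosphate branch 2 of 11 genes rose and 4 fell (18.2% and 36.4%, against 7.81% and 7.80% of all tested genes). Rpia, which makes ribose 5-phosphate, fell from 2389.6 ± 354 to 1266 ± 60.8, and Prps1, which activates it for nucleotide synthesis, fell from 9282 ± 1186 to 6401 ± 323. Pentose phosphate genes that rose numbered 1 without Hdac1/2 cKD replicate 3. Those that fell numbered 2 without Hdac1/2 cKD replicate 1 or 2. Higher citrate cycle genes numbered 1 with equal totals. Nuclear oxidative phosphorylation genes that rose numbered 1 without NC replicate 2 or Hdac1/2 cKD replicate 1, 2 or 3 and 6 with equal totals. Those of that list that fell numbered 0 without NC replicate 3 or Hdac1/2 cKD replicate 1, 2 or 3 and 0 with equal totals. Higher mitochondrially encoded genes numbered 2 without NC replicate 2 and 1 with equal totals.

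Polyamine genes had more members that fell than rose. Of 20 measured genes of polyamine, proline and arginine metabolism 10 fell and 1 rose, with a median of -0.39. Their summed share was 0.610% to 0.647% in NC and 0.494% to 0.498% in Hdac1/2 cKD. Polyamines are small cations needed for growth, and the fall covered both synthesis and its regulators. Odc1, the first enzyme of the pathway, stood at 30537, 30542 and 32436 in NC and 21633, 22332 and 21391 in Hdac1/2 cKD (log2 -0.52, SE 0.08, adjusted p = 0.000802). Amd1, which makes the aminopropyl donor, stood at 6305, 5638 and 6108 in NC and 3674, 3475 and 3512 in Hdac1/2 cKD (log2 -0.76, SE 0.10, adjusted p = 0.000283), though reads may be shared with its copy Amd2. Azin1, which spares ornithine decarboxylase from its antizyme, fell from 6106 ± 633 to 4241 ± 180.3, and the antizyme gene Oaz2 fell too, from 823 ± 55.0 to 515 ± 46.6. In all 4 genes the 2 groups were separate. The count of lower genes was 6 without NC replicate 1 or Hdac1/2 cKD replicate 2 or 3 and 6 with lane in the model. Inside lane 2 the list's median was -0.33, and inside lane 3 it was -0.48. Polyamine genes that rose numbered 2 without Hdac1/2 cKD replicate 1, 0 without Hdac1/2 cKD replicate 2 or 3, 0 with lane in the model and 2 with equal totals.

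In serine, folate and one-carbon metabolism 8 of 25 genes fell and 2 rose. Mthfd1, the cytosolic folate enzyme, fell from 3195 ± 234 to 2181 ± 171 (log2 -0.55, SE 0.10, adjusted p = 0.00295). Mtrr, which reactivates methionine synthase, fell from 1093 ± 259 to 474 ± 83.2 (log2 -1.19, SE 0.19, adjusted p = 0.00110). Cth, which makes cysteine from cystathionine, fell from 2534 ± 154 to 1535 ± 52.6, and Mat2b, a regulatory subunit of the S-adenosylmethionine synthetase, fell from 983 ± 63.3 to 687 ± 40.8. The 2 that rose belong to the mitochondrial arm of the folate cycle: Shmt2, 344, 277 and 200.4 in NC and 738, 603 and 521 in Hdac1/2 cKD (log2 1.20, SE 0.23, adjusted p = 0.00340), and Mthfd1l, from 71.0 ± 10.8 to 155 ± 35.2, whose call was lost in 2 settings. No Shmt2 value overlapped between the groups. The list differed from Sin3a KD at 10 of 25 genes, Mthfd1 and Shmt2 among them (log2 -0.56, SE 0.10, adjusted p = 0.00231 and log2 1.05, SE 0.23, adjusted p = 0.00627). The list as a whole had a median of -0.13, and its median inside lane 2 was 0.03 and inside lane 3 -0.10. The count of lower genes was 5 with lane in the model. One-carbon genes that rose numbered 1 without Hdac1/2 cKD replicate 1 and 1 with lane in the model.

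Of 25 genes of purine and pyrimidine synthesis 7 fell and 2 rose. Impdh2, the enzyme that commits inosine monophosphate to guanine nucleotides, stood at 29029.7, 24091 and 27051 in NC and 15409.8, 14741 and 16263 in Hdac1/2 cKD (log2 -0.79, SE 0.09, adjusted p = 8.47e-05). Ppat, the entry enzyme of purine synthesis, fell from 7210.4 ± 604 to 5119 ± 310.5, and Adss, on the branch to adenine nucleotides, fell from 2178 ± 105 to 1410.2 ± 137. Samhd1, which breaks deoxynucleotides down, moved the other way, 99.6, 96.0 and 66.1 in NC and 377, 369 and 257 in Hdac1/2 cKD (log2 1.93, SE 0.26, adjusted p = 0.000415). The groups were separate in all 4 genes. The count of lower genes was 4 without Hdac1/2 cKD replicate 1 and 4 with equal totals, and the list's medians inside lane 2 and lane 3 were -0.08 and -0.23. Purine and pyrimidine genes that rose numbered 1 without NC replicate 2 or 3 or Hdac1/2 cKD replicate 1 or 3.

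**Figure D2:**
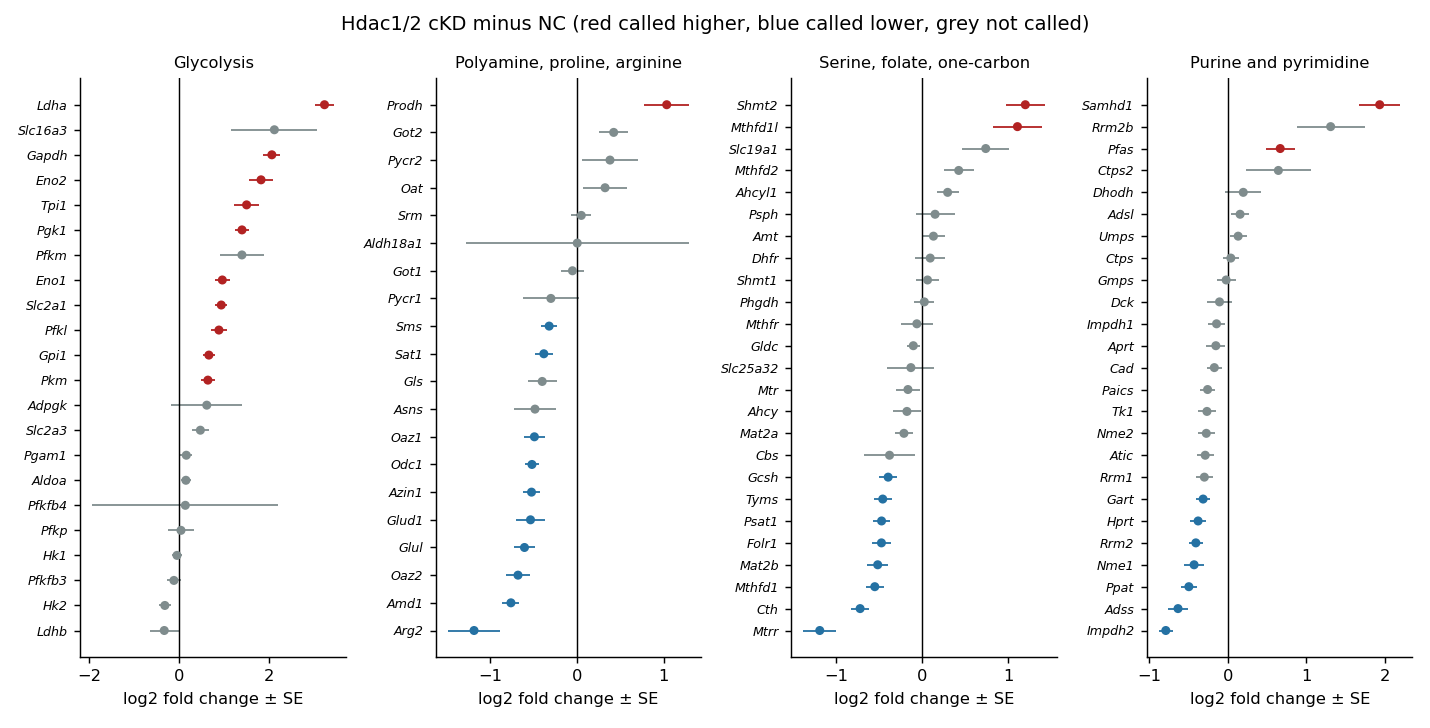
Metabolic gene lists. Each panel plots the log2 fold change (Hdac1/2 cKD minus NC, bars are standard errors) of every tested member of one list, with members that passed the test in colour. Most glycolysis members lie above 0 and the median is 0.65, while most polyamine members lie below 0 and the median is -0.39.

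Lipid metabolism changed gene by gene. Of 36 genes of cholesterol and fatty acid synthesis 7 rose and 3 fell. Srebf2, the transcription factor of the cholesterol pathway, stood at 148, 63.3 and 135 in NC and 401, 370.3 and 591 in Hdac1/2 cKD (log2 2.03, SE 0.35, adjusted p = 0.00211). Msmo1, a sterol demethylase of the pathway, fell from 1556 ± 57.3 to 743 ± 119 (log2 -1.08, SE 0.13, adjusted p = 0.000165). The fatty acid desaturases rose: Scd2 stood at 1976, 1626 and 2184 in NC and 4687, 4448 and 4748 in Hdac1/2 cKD (log2 1.27, SE 0.11, adjusted p = 1.63e-05), and Fads1 rose from 206 ± 32.7 to 408 ± 49.7. Both differed from Sin3a KD, where Scd2 had a mean of 1472 (log2 1.65, SE 0.11, adjusted p = 2.72e-06). The count of risen genes was 4 without Hdac1/2 cKD replicate 3. In fatty acid oxidation and the peroxisome 8 of 36 genes rose and 2 fell. Cpt1a, which admits fatty acids to mitochondria, rose from 744 ± 155 to 1639 ± 256 (log2 1.15, SE 0.18, adjusted p = 0.000946), and the thiolase Acaa1a, the thioesterases Acot1 and Acot7 and the peroxisomal import receptor Pex5 rose as well. Cat, the peroxisomal catalase that breaks down hydrogen peroxide, had the opposite change, 595, 727 and 592 in NC and 159.8, 189 and 161 in Hdac1/2 cKD (log2 -1.90, SE 0.16, adjusted p = 1.01e-05). Its 3 knockdown values lay close together, well under the lowest control.

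Transporters carried some of the larger metabolic changes. Of 235 genes named Slc, 22 rose and 33 fell, with a median of 0.03. Slc6a14, a carrier of neutral and cationic amino acids, stood at 291, 465 and 395 in NC and 81.8, 118 and 103 in Hdac1/2 cKD (log2 -1.90, SE 0.24, adjusted p = 0.000235). Slc5a11, a sodium-coupled inositol carrier, fell from 2633 ± 499 to 963 ± 191 (log2 -1.45, SE 0.16, adjusted p = 9.51e-05), and Slc13a2, a citrate carrier, fell from 772 ± 165 to 279 ± 27.1. The fatty acid carrier gene Slc27a3 rose from 106 ± 18.9 to 459.8 ± 110.4 (log2 2.09, SE 0.25, adjusted p = 0.000138). Slc38a2, which takes up small neutral amino acids, rose from 142 ± 15.7 to 319 ± 62.2. The counts for Slc genes were lower with some single libraries left out, 14 without Hdac1/2 cKD replicate 1, 11 without Hdac1/2 cKD replicate 2 or 3 and 14 with lane in the model for the genes that rose, and 19 without NC replicate 1, 20 without Hdac1/2 cKD replicate 1 and 21 without Hdac1/2 cKD replicate 3 for those that fell.

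Stress genes moved in both directions. In the heat shock and chaperone list 5 of 28 genes rose and 3 fell, with a median of -0.09. One gene stood out: Hspb1, the small heat shock protein HSP27, had values of 186, 262 and 253 in NC and 1557, 1915 and 1902 in Hdac1/2 cKD (log2 2.94, SE 0.20, adjusted p = 2.79e-06), and all knockdown libraries were far above all controls. It had a mean of 231 in Sin3a KD and differed from it (log2 2.97, SE 0.20, adjusted p = 2.48e-06). Hsf1, the heat shock regulator, was not called (log2 0.49, adjusted p = 0.723), and its control values ran from 21.5 to 224. The higher count was 2 without NC replicate 1 or Hdac1/2 cKD replicate 3, 3 without NC replicate 2, 1 without Hdac1/2 cKD replicate 2 and 2 with lane in the model. In the endoplasmic reticulum and integrated stress list 5 of 28 genes rose and 1 fell. The chaperones of the reticulum Hsp90b1 and Pdia4 rose, from 1529 ± 210.3 to 2551 ± 219 and from 879.7 ± 54.8 to 1449 ± 60.2, and the co-chaperone Dnajb9 fell from 5061 ± 639 to 2759 ± 339 (log2 -0.87, SE 0.12, adjusted p = 0.000538). That higher count was 3 without NC replicate 1 or 2 or Hdac1/2 cKD replicate 1 or 3 and 2 without Hdac1/2 cKD replicate 2. Among 27 glutathione and NRF2 target genes 5 rose and 3 fell. The peroxiredoxins went separate ways: cytosolic Prdx1 rose from 1468 ± 321 to 2966 ± 200.5 (log2 1.03, SE 0.18, adjusted p = 0.00220), and mitochondrial Prdx3 fell from 1262 ± 148 to 589 ± 35.8 (log2 -1.09, SE 0.13, adjusted p = 0.000154). Prdx1 had a mean of 724 in Sin3a KD (log2 2.06, SE 0.18, adjusted p = 1.46e-05 for the difference between the knockdowns). The count of risen genes on this list was 1 without NC replicate 1 or Hdac1/2 cKD replicate 2 or 3, 3 without NC replicate 2 or 3, 2 without Hdac1/2 cKD replicate 1 and 2 with lane in the model. Lower NRF2 and glutathione genes numbered 8 without NC replicate 2. Lower heat shock and chaperone genes numbered 1 without NC replicate 1 or Hdac1/2 cKD replicate 1 or 3 and 0 with lane in the model. Lower reticulum stress genes numbered 2 without NC replicate 3.

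The machinery of protein synthesis had lower members and none that rose. Of 46 translation factors and tRNA synthetases 9 fell and none rose (0 at an unadjusted p under 0.05 in limma), and the median was -0.21. Of 45 ribosome biogenesis genes 7 fell and none rose (0 at an unadjusted p under 0.05 in limma), and the median was -0.18. None of 76 cytosolic ribosomal protein genes was called in limma (4 lower at an unadjusted p under 0.05), and their median was -0.10. For comparison, the bin of genes with the highest counts had a median of -0.15, and 23.3% of its genes were called lower. The shares called lower were 19.6% for translation and 15.6% for ribosome biogenesis. Both lay below that bin and above the 7.80% of all tested genes. The median NC levels of these lists were 4844 and 2379. Both counts leaned on single libraries and on scale. For translation the count was 4 without NC replicate 1 or 3, 3 without Hdac1/2 cKD replicate 1 or 3, 2 without Hdac1/2 cKD replicate 2, 2 with lane in the model and 2 with equal totals, and for ribosome biogenesis 3 without NC replicate 1, 2 without Hdac1/2 cKD replicate 1 or 3, 1 without Hdac1/2 cKD replicate 2, 2 with lane in the model and 2 with equal totals. Etf1, the factor that ends translation, was the member called in every setting, from 8093 ± 113 to 5657 ± 223 (log2 -0.52, SE 0.08, adjusted p = 0.00112). Ribosomal protein genes called lower numbered 5 without NC replicate 2. Those called higher numbered 1 without NC replicate 3.

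In the Myc network, which drives growth genes of this kind, 4 of 13 genes fell and 2 rose. Besides Myc, whose values were 713, 543 and 500.1 in NC and 90.8, 114 and 65.1 in Hdac1/2 cKD, the MAX-related partners Mnt and Mlx fell, from 984 ± 29.8 to 633 ± 10.3 and from 347 ± 1.03 to 173 ± 20.7, and so did Zbtb17, which MYC uses to repress genes, from 2090.0 ± 437 to 1262 ± 17.3. Mxi1 was the member that rose in every setting. Each of these 5 genes had separate groups. Network genes that rose numbered 1 without Hdac1/2 cKD replicate 1 or 2.

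Of 37 proteasome genes 6 fell and 1 rose, and 34 of the 37 had a change below 0 (median -0.17). The share that fell was 16.2% at a median NC level of 2834, against 23.3% of the highest level bin. Psmd3, a lid subunit of the regulatory particle, had the largest change among the called members, with 10935, 8768 and 9863 in NC and 4236, 4577 and 4643 in Hdac1/2 cKD (log2 -1.13, SE 0.10, adjusted p = 1.21e-05). The core subunit Psma6 fell from 4743 ± 656 to 3248 ± 273. The lower count was 3 without NC replicate 3 or Hdac1/2 cKD replicate 3, 2 without Hdac1/2 cKD replicate 1 or 2, 3 with lane in the model and 2 with equal totals. Lysosome and autophagy genes had 8 of 42 lower and none higher in limma (2 higher at an unadjusted p under 0.05). Gabarapl1, which decorates autophagosomes, stood at 341, 306 and 362 in NC and 86.4, 93.2 and 84.6 in Hdac1/2 cKD (log2 -1.92, SE 0.21, adjusted p = 7.29e-05), and the groups were well apart. Ulk1, the kinase that starts autophagy, fell from 13883 ± 2023 to 8969 ± 238, and of the lysosomal genes Psap, the saposin precursor, fell from 38096 ± 3864 to 24847 ± 646 and Ctsa, a protective carboxypeptidase, fell from 12585 ± 1082 to 7838 ± 323. The count of lower genes was 5 without Hdac1/2 cKD replicate 1 and 5 with equal totals. Inside lane 2 the median of the 42 genes was -0.06 and inside lane 3 -0.32. Proteasome genes that rose numbered 0 without NC replicate 2 or 3 or Hdac1/2 cKD replicate 2 or 3. Lysosome and autophagy genes that rose numbered 1 without NC replicate 2 or 3 and 1 with equal totals.

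Genes of nuclear import were called in both directions. Ipo7, which carries ribosomal proteins and histones into the nucleus, stood at 20134, 17308 and 17351 in NC and 9105, 9251 and 8578 in Hdac1/2 cKD (log2 -1.02, SE 0.10, adjusted p = 2.56e-05), and the groups did not overlap. Of the 48 genes of import, export and the pore 6 fell and 3 rose (12.5% and 6.25%, against 7.80% and 7.81% of all tested genes). The lower count was 3 without NC replicate 1 or Hdac1/2 cKD replicate 3, 2 without Hdac1/2 cKD replicate 1 or 2, 2 with lane in the model and 2 with equal totals. In the ubiquitin list 6 of 40 genes fell and 3 rose. Fbxo15, an F-box gene known as an embryonic stem cell marker, fell from 19394 ± 927 to 11672 ± 27.5 (log2 -0.73, SE 0.10, adjusted p = 0.000310), and Fbxo5, an inhibitor of the anaphase-promoting complex, fell from 1223 ± 19.6 to 736 ± 57.7. Uchl1, a ubiquitin hydrolase, rose from 119.8 ± 10.1 to 339.7 ± 69.8. The lower count on that list was 3 without NC replicate 1 or 2 or Hdac1/2 cKD replicate 1 or 2, 2 without Hdac1/2 cKD replicate 3 and 2 with equal totals. Import and export genes that rose numbered 1 without Hdac1/2 cKD replicate 1.

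Cell cycle genes were called in both directions. Of 30 genes around D cyclins, RB and E2F 7 rose and 2 fell, with a median of 0.33. Skp2, the F-box protein that targets p27, fell from 1997 ± 97.4 to 1328 ± 7.50 (log2 -0.59, SE 0.11, adjusted p = 0.00349). Ccnd1, Ccnd3 and Cdkn2a rose in all 17 alternative settings, while Ccnd2, Cdk6 and the inhibitor Cdkn1c had higher calls that were lost in 1 to 3 settings, and E2f2 had a lower one lost in 1. The higher count was 4 without Hdac1/2 cKD replicate 1 or 2. Of 43 replication genes 1 rose and 3 fell: Cdc6, which loads the helicase at origins, fell from 3045 ± 272 to 1877 ± 121 (log2 -0.70, SE 0.10, adjusted p = 0.000627), and Rpa1, a single-strand binding subunit, fell from 795 ± 66.0 to 470.0 ± 12.2. Of 46 mitosis genes 6 rose and 4 fell. Plk1, the polo-like kinase, rose from 1811 ± 23.5 to 2852 ± 58.7 (log2 0.65, SE 0.09, adjusted p = 0.000445), Ncapd2, a condensin subunit, rose from 873 ± 6.28 to 1369 ± 214, and the checkpoint gene Mad2l1 fell from 1859.8 ± 81.3 to 1133 ± 25.8 (log2 -0.71, SE 0.11, adjusted p = 0.000701). Mad2l1 had a mean of 1182 in Sin3a KD. The mitosis counts were 3 without Hdac1/2 cKD replicate 2 for higher genes and 1 without NC replicate 1 or Hdac1/2 cKD replicate 2 or 3, 2 with lane in the model and 2 with equal totals for lower ones. None of 44 DNA damage and repair genes rose in limma (1 at an unadjusted p under 0.05) and 5 fell, of which Parp1, a sensor of breaks, was lost in the fewest settings. DNA damage and repair genes that fell numbered 1 without NC replicate 1 or Hdac1/2 cKD replicate 3, 3 without Hdac1/2 cKD replicate 1, 2 without Hdac1/2 cKD replicate 2, 1 with lane in the model and 1 with equal totals. Replication genes that rose numbered 0 without NC replicate 1 or Hdac1/2 cKD replicate 1 or 3, 2 without NC replicate 2, 0 with lane in the model and 5 with equal totals. Lower genes around D cyclins numbered 1 with lane in the model.

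The Wnt signalling genes that rose lay at several levels of the pathway, while most genes of the list were not called. Wnt ligands act through Frizzled and LRP receptors to stabilise beta-catenin, which works with TCF factors, and Axin2 and Znrf3 are known feedback targets. Of 32 measured genes 6 rose, 1 fell and 25 were not called, with a median of 0.33. The shares called were 18.75% and 3.125%, against 7.81% and 7.80% of all tested genes. The list's median NC level was 162.5, and the level bin of 115.4 to 217.5 counts had a median of 0.09, with 11.2% called higher. Among receptors, Lrp5 stood at 576, 579.6 and 561 in NC and 1130.0, 1445 and 1292 in Hdac1/2 cKD (log2 1.16, SE 0.14, adjusted p = 0.000136) and Fzd6 rose from 30.7 ± 7.65 to 119 ± 17.8. Tcf7, the transcription factor, stood at 102, 133 and 76.6 in NC and 251, 333 and 309.6 in Hdac1/2 cKD (log2 1.54, SE 0.25, adjusted p = 0.00115). Of the feedback genes, Axin2 stood at 54.6, 20.0 and 15.3 in NC and 121, 129.8 and 151 in Hdac1/2 cKD (log2 2.33, SE 0.44, adjusted p = 0.00346) and Znrf3 rose from 239 ± 22.2 to 469 ± 1.61. All 5 genes had separate groups. Ctnnb1, the sixth, was lost in 6 settings. Lrp5, Axin2, Znrf3 and Fzd6 also differed from Sin3a KD, where Axin2 had a mean of 33.7 (log2 1.96, SE 0.44, adjusted p = 0.00814). The list's median was 0.25 inside lane 2 and 0.54 inside lane 3. Without NC replicate 3 it was 0.11, and the count of risen genes with that library left out was 5. Lower Wnt genes numbered 0 without NC replicate 1 or 2 or Hdac1/2 cKD replicate 1, 2 or 3, 0 with lane in the model and 0 with equal totals.

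Ephrins and their receptors, which pass signals between touching cells in both directions, had 7 of 20 measured genes higher and 1 lower, with a median of 0.58. The ligand Efna3 stood at 122, 149.8 and 88.5 in NC and 511, 641 and 649 in Hdac1/2 cKD (log2 2.34, SE 0.27, adjusted p = 0.000146), and the ligand Efna2 at 351, 282 and 297 in NC and 725, 735 and 805 in Hdac1/2 cKD (log2 1.29, SE 0.16, adjusted p = 0.000187). The receptor Epha2 rose from 187 ± 45.8 to 411 ± 105. Efna1 was the ligand that fell, from 418 ± 14.4 to 265 ± 41.8, with its call lost in 4 settings. Efna2 differed from Sin3a KD (log2 1.46, SE 0.16, adjusted p = 6.39e-05), whereas Efna3, at 377 there, did not pass (log2 0.73, SE 0.27, adjusted p = 0.0866). The count of higher genes was 4 without Hdac1/2 cKD replicate 2 and 4 with lane in the model, and inside lane 2 and lane 3 the medians were 0.79 and 0.68. In the related semaphorin and plexin genes 4 of 23 rose and 1 fell. Plxna1, a semaphorin receptor, stood at 984, 1099 and 1052 in NC and 2079.7, 2329 and 2518 in Hdac1/2 cKD (log2 1.14, SE 0.13, adjusted p = 8.64e-05), and its mean in Sin3a KD was 2244. The list's median was 0.72, but -0.09 without NC replicate 3, and the higher count was 2 without Hdac1/2 cKD replicate 3. Inside lane 2 the semaphorin and plexin median was -0.05, and inside lane 3 it was 1.48. Lower ephrin and Eph genes numbered 0 without Hdac1/2 cKD replicate 1 or 2 and 0 with lane in the model. Lower semaphorin and plexin genes numbered 2 without NC replicate 2, 0 without NC replicate 3 or Hdac1/2 cKD replicate 2 or 3 and 0 with lane in the model.

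Receptor tyrosine kinase, RAS and MAPK genes had 4 of 35 higher and 2 lower (11.4% and 5.71%, against 7.81% and 7.80% of all tested genes). Mapk14, the stress kinase p38 alpha, stood at 887, 966 and 815 in NC and 2726, 2836 and 2361 in Hdac1/2 cKD (log2 1.57, SE 0.12, adjusted p = 4.86e-06), with every knockdown library above every control. Mapk3, the kinase ERK1, rose from 188 ± 6.89 to 487 ± 99.9 (log2 1.35, SE 0.21, adjusted p = 0.000910), and Nras rose from 399 ± 30.0 to 682 ± 55.7, while the RAS relative Rras2 fell from 1434 ± 68.6 to 924 ± 106. Mapk14 and Mapk3 had means of 1073 and 136 in Sin3a KD and differed from it (log2 1.30, SE 0.12, adjusted p = 1.84e-05 and log2 1.82, SE 0.21, adjusted p = 9.62e-05). Immediate early genes that report on this pathway did not move together: 3 of 27 rose and 6 fell. The feedback inhibitor Spry2 fell from 767 ± 124 to 377 ± 15.8 (log2 -1.01, SE 0.15, adjusted p = 0.000631), and the AP-1 member Jund and Ier2 rose, from 2421 ± 303 to 4242 ± 342 and from 392 ± 69.8 to 735 ± 56.9. The lower count was 3 without Hdac1/2 cKD replicate 1 and 2 with lane in the model. Lower kinase, RAS and MAPK genes numbered 1 without Hdac1/2 cKD replicate 3.

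In the TGF-beta and BMP list 5 of 32 genes rose and 3 fell. Id3, a known BMP target, fell from 1488 ± 373 to 571 ± 29.8 (log2 -1.35, SE 0.24, adjusted p = 0.00241), Smad7, a feedback inhibitor, fell from 745 ± 91.1 to 436 ± 46.6, and Tgif1, a SMAD co-repressor, fell from 199 ± 50.9 to 80.8 ± 9.83. Skil, another SMAD co-repressor, rose from 384 ± 88.3 to 752 ± 36.9. The count of risen genes was 3 without Hdac1/2 cKD replicate 1 or 2, 2 without Hdac1/2 cKD replicate 3 and 2 with lane in the model. PI3K and mTOR genes split 4 and 4 of 32. Pik3r2, a regulatory subunit of PI3K, rose from 484 ± 92.7 to 1009 ± 33.6 (log2 1.08, SE 0.16, adjusted p = 0.000685), and the mTOR partners Deptor and Mlst8 fell, from 1382 ± 117 to 862 ± 71.2 and from 884 ± 117 to 550.4 ± 44.3. Of 25 retinoic acid and nuclear receptor genes 5 rose and 2 fell. Rara, a retinoic acid receptor, stood at 39.9, 42.7 and 26.8 in NC and 185, 183 and 179.7 in Hdac1/2 cKD (log2 2.32, SE 0.33, adjusted p = 0.000502), and its 3 knockdown values lay within a narrow range far above the controls. Rdh10, which begins retinoic acid synthesis, rose from 1008 ± 42.3 to 1861 ± 80.2 (log2 0.88, SE 0.11, adjusted p = 0.000174). Esrrb, an orphan receptor of the pluripotency network, fell from 2556 ± 585 to 1383 ± 214. The count of risen genes was 3 without Hdac1/2 cKD replicate 1 and 2 with lane in the model. No interferon-response gene of 19 rose in limma (1 at an unadjusted p under 0.05) and 4 fell, led by Oasl2, from 325 ± 48.7 to 142 ± 22.9 (log2 -1.19, SE 0.20, adjusted p = 0.00169), and the count was 1 without NC replicate 1 or Hdac1/2 cKD replicate 3, 2 without NC replicate 3 or Hdac1/2 cKD replicate 1 or 2, 1 with lane in the model and 1 with equal totals. PI3K and mTOR genes that rose numbered 2 without NC replicate 3 or Hdac1/2 cKD replicate 1 or 2, 1 without Hdac1/2 cKD replicate 3 and 8 with equal totals. PI3K and mTOR genes that fell numbered 2 without Hdac1/2 cKD replicate 2 or 3 and 2 with equal totals. Lower retinoic acid and nuclear receptor genes numbered 1 without Hdac1/2 cKD replicate 2 and 1 with lane in the model. Higher interferon-response genes numbered 1 without NC replicate 3 and 1 with equal totals.

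**Figure D3:**
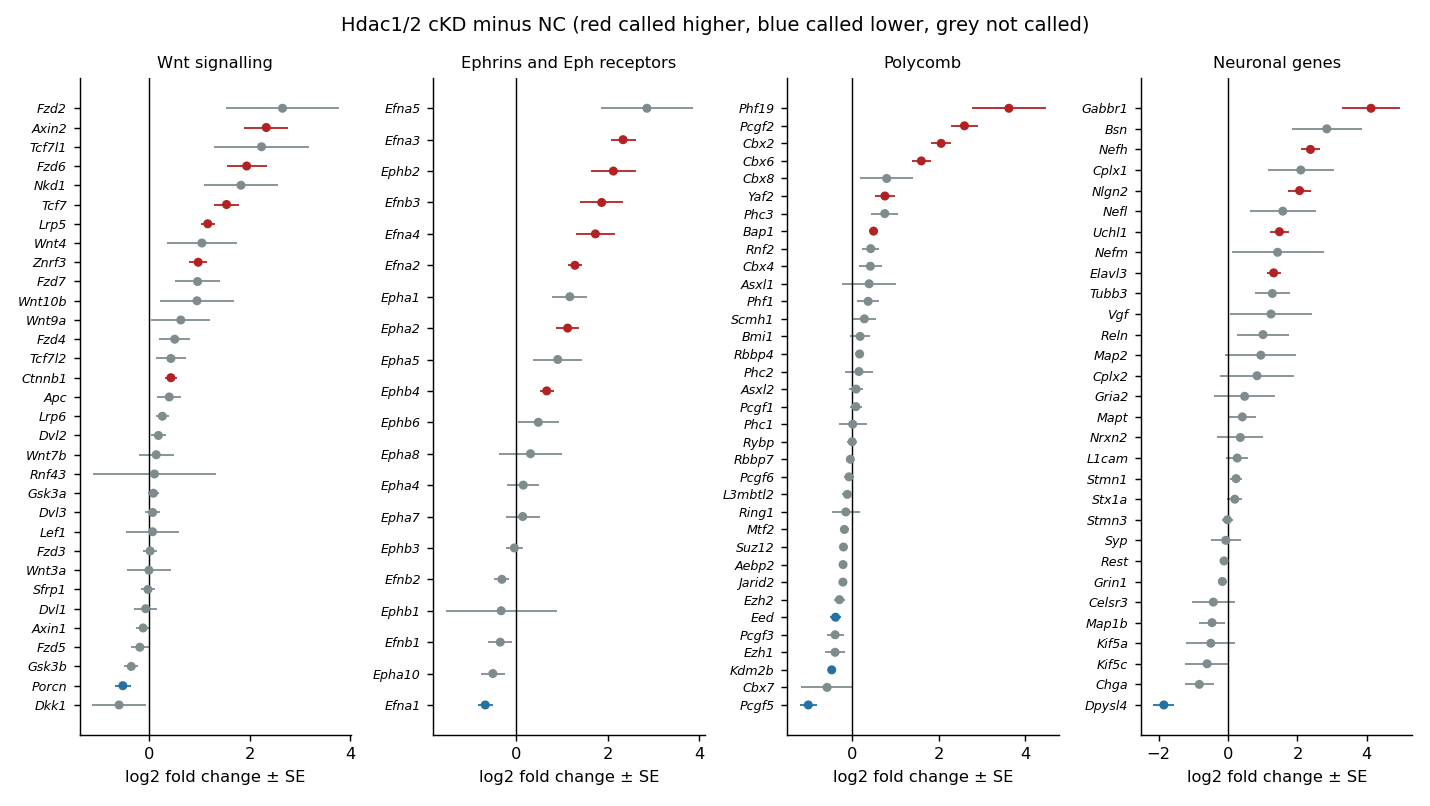
Signalling, chromatin and neuronal gene lists. Each panel plots the log2 fold change (Hdac1/2 cKD minus NC, bars are standard errors) of every tested member of one list, with members that passed the test in colour. The Wnt and ephrin panels have 6 and 7 coloured members above 0 and 1 below it each, and the Polycomb panel has 6 above and 3 below.

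Genes for the cell cortex and the matrix were changed in both directions. Of 44 actin, myosin and intermediate filament genes 6 rose and 7 fell. Rdx (radixin), which links actin to the membrane, stood at 651, 728 and 665 in NC and 2170.1, 1915 and 2105 in Hdac1/2 cKD (log2 1.60, SE 0.12, adjusted p = 4.86e-06), and differed from Sin3a KD (log2 1.87, SE 0.12, adjusted p = 2.42e-06). Its relative Msn (moesin) fell from 104 ± 13.1 to 43.1 ± 12.0, with the call lost in 3 settings. Vcl, the adhesion protein vinculin, rose from 298 ± 50.9 to 593 ± 49.0, Tagln2, an actin bundler, rose from 884 ± 93.2 to 1703 ± 187, and Cnn3, a calponin, fell from 2101 ± 61.7 to 1265 ± 192. The lower count was 3 without Hdac1/2 cKD replicate 1, 4 without Hdac1/2 cKD replicate 2, 3 with lane in the model and 3 with equal totals. In the matrix and integrin list 5 of 30 genes rose and 6 fell, and the directions divided by role. All 6 that fell encode integrin subunits, the receptors for matrix. Itgb1 fell from 2356 ± 115 to 1552 ± 54.7 (log2 -0.60, SE 0.10, adjusted p = 0.00186), Itga3 fell from 1158 ± 191 to 483 ± 184, Itgb5 fell from 3548 ± 309 to 2512 ± 161 and Itgav fell from 1458 ± 50.5 to 983 ± 34.2. The genes that rose included the laminin Lama5, 2344, 2625 and 1327 in NC and 6816, 5617 and 6491 in Hdac1/2 cKD (log2 1.64, SE 0.26, adjusted p = 0.00327), the basement membrane proteoglycan Hspg2, from 70.7 ± 13.6 to 320.3 ± 104, and the collagen-modifying enzyme Plod3, from 753 ± 77.7 to 1588 ± 133. Lama5 had a mean of 5738 in Sin3a KD, and the test between the knockdowns did not call it (log2 0.16, SE 0.26, adjusted p = 0.736). The count of risen matrix genes was 3 without Hdac1/2 cKD replicate 2 or 3.

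Among genes that act on chromatin, the other deacetylases had 1 call: of 14 measured, Hdac6 was higher (log2 0.42, SE 0.14, adjusted p = 0.0499), and the call was lost with any one library left out except NC replicate 1. Polycomb proteins repress developmental genes through histone H3 lysine 27 methylation and H2A ubiquitination. Of 35 measured Polycomb genes 6 rose and 3 fell (17.1% and 8.57%, against 7.81% and 7.80% of all tested genes). Cbx2, Pcgf2 and Cbx6 encode variable subunits of the PRC1 complex. Cbx2, a chromodomain subunit, stood at 138, 143 and 97.1 in NC and 554, 523 and 485 in Hdac1/2 cKD (log2 2.06, SE 0.23, adjusted p = 9.74e-05), and Pcgf2, also called MEL18, at 55.5, 103 and 39.0 in NC and 356, 399 and 365 in Hdac1/2 cKD (log2 2.60, SE 0.32, adjusted p = 0.000174). Cbx6, another chromodomain subunit, stood at 223, 198 and 189 in NC and 639.7, 636 and 576 in Hdac1/2 cKD (log2 1.60, SE 0.22, adjusted p = 0.000407). No library of one group entered the range of the other in these 3 genes. Pcgf5, a different ring-finger partner, fell from 619 ± 207 to 296 ± 33.7, and Kdm2b, which recruits a variant PRC1 to CpG islands, fell from 5742 ± 458 to 4112 ± 11.3. Cbx2 and Pcgf2 had means of 161 and 147 in Sin3a KD and differed from it (log2 1.71, SE 0.23, adjusted p = 0.000311 and log2 1.35, SE 0.32, adjusted p = 0.00963). The higher count on this list was 3 without Hdac1/2 cKD replicate 2, and its median was 0.08. Inside lane 2 the Polycomb median was -0.06, and inside lane 3 it was 0.15.

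Of 50 histone methyltransferases and demethylases 4 rose and 5 fell (8% and 10%, against 7.81% and 7.80% of all tested genes). Kmt2a, the MLL1 methyltransferase of H3 lysine 4, stood at 52.5, 48.3 and 88.0 in NC and 271, 288 and 330.4 in Hdac1/2 cKD (log2 2.27, SE 0.29, adjusted p = 0.000294). Kdm4a, a demethylase of H3 lysine 9, fell from 1313 ± 104 to 758 ± 37.5 (log2 -0.79, SE 0.12, adjusted p = 0.000758), and Prmt6, an arginine methyltransferase, fell from 824 ± 168 to 376 ± 37.1. The lower count was 3 without NC replicate 1 or Hdac1/2 cKD replicate 1 or 2, 2 without Hdac1/2 cKD replicate 3, 3 with lane in the model and 3 with equal totals, and the higher count 2 without NC replicate 1 or Hdac1/2 cKD replicate 1, 8 without NC replicate 2, 2 with lane in the model and 9 with equal totals. In the remodeller list 6 of 39 rose and 2 fell (15.4% and 5.13%). Dpf1, a BAF subunit known from neurons, rose from 22.2 ± 7.07 to 91.8 ± 7.09 (log2 2.05, SE 0.36, adjusted p = 0.00226), its relative Dpf3 fell from 440.1 ± 76.7 to 241 ± 30.3, and Smarca5, the ISWI ATPase, fell from 10553 ± 289.9 to 7646 ± 417. The higher count was 2 without Hdac1/2 cKD replicate 1 or 2 and 3 without Hdac1/2 cKD replicate 3. Replacement histones and high mobility group proteins had 6 of 35 higher and 2 lower (17.1% and 5.71%). Hmga1 rose most, 399.9, 526 and 594 in NC and 2673, 2668 and 3353 in Hdac1/2 cKD (log2 2.52, SE 0.18, adjusted p = 2.88e-06), although reads can be shared with its near-identical copy. H2afz, the H2A.Z variant, rose from 5452 ± 301 to 8519 ± 72.0 (log2 0.65, SE 0.09, adjusted p = 0.000570), and Hmgn1, which binds nucleosomes, rose from 2626 ± 275 to 4669 ± 105 (log2 0.84, SE 0.11, adjusted p = 0.000434). Anp32a, part of an inhibitor of histone acetyltransferases, rose from 4368 ± 476 to 6521 ± 115. None of the 10 measured replication-dependent histone genes was called in limma (1 higher at an unadjusted p under 0.05), and most of their RNA lacks a poly(A) tail and is not captured by this protocol. Of 26 KRAB zinc finger and retroelement silencing genes none rose in limma (2 at an unadjusted p under 0.05) and 2 fell, and their cofactor Trim28 was not called (log2 -0.24, adjusted p = 0.170). Remodeller genes that fell numbered 6 without NC replicate 3. Lower replacement histone and high mobility genes numbered 1 without NC replicate 1, 0 without Hdac1/2 cKD replicate 2 or 3 and 1 with lane in the model. Higher replication-dependent histone genes numbered 1 without NC replicate 2. KRAB and silencing genes that rose numbered 1 without NC replicate 2 or 3 and 1 with equal totals. KRAB and silencing genes that fell numbered 1 without Hdac1/2 cKD replicate 2.

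Several genes known for expression in other tissues rose. Of 30 neuronal genes 5 rose and 1 fell, with a median of 0.44. The shares were 16.7% and 3.33%, against 7.81% and 7.80% of all tested genes. The list's median NC level was 63.8. For comparison, the level bin of 54.3 to 115.4 counts had a median of 0.18, and 10.9% of its genes were called higher. Over the alternative settings the neuronal median ran from 0.09 to 0.72. Nefh, the heavy neurofilament, stood at 62.7, 84.5 and 97.9 in NC and 371, 398 and 505 in Hdac1/2 cKD (log2 2.37, SE 0.27, adjusted p = 9.60e-05). Elavl3, a neuronal RNA-binding protein, stood at 182, 206 and 183 in NC and 542, 455 and 433 in Hdac1/2 cKD (log2 1.31, SE 0.20, adjusted p = 0.000853), and Nlgn2, a synaptic adhesion protein, at 45.6, 67.5 and 29.4 in NC and 178, 186 and 208 in Hdac1/2 cKD (log2 2.06, SE 0.33, adjusted p = 0.00115). In these genes the controls were low but above 0, and the knockdown libraries were all higher. Dpysl4, a growth cone protein, was the one that fell, from 173 ± 36.7 to 48.9 ± 19.3 (log2 -1.85, SE 0.30, adjusted p = 0.00132). Rest, the repressor that keeps neuronal genes off outside neurons and recruits HDAC1/2, was not called (log2 -0.12, adjusted p = 0.442). The list differed from Sin3a KD at 12 of its 30 genes, and its median was 0.47 inside lane 2 and 0.15 inside lane 3. Lower neuronal genes numbered 2 without NC replicate 2.

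Of 42 germline, meiosis and piRNA genes 7 rose and 2 fell, with a median of 0.48. The shares were 16.7% and 4.76%, against 7.81% and 7.80% of all tested genes. Their median NC level was 66.3, and the level bin of 54.3 to 115.4 counts had a median of 0.18, with 10.9% called higher. The germline median was 0.16 inside lane 2 and 0.54 inside lane 3. Ddx4, the germ cell helicase VASA, stood at 157, 216 and 133 in NC and 419, 422 and 450.0 in Hdac1/2 cKD (log2 1.38, SE 0.22, adjusted p = 0.00115). Sycp3, of the synaptonemal complex, rose from 129.5 ± 62.9 to 344 ± 45.4, Tex15, of the piRNA silencing pathway, rose from 73.7 ± 41.8 to 266 ± 41.4, and Mael, another piRNA factor, rose from 145 ± 20.5 to 396 ± 169.6. Piwil2, a PIWI protein, fell from 1052 ± 60.5 to 620.4 ± 69.4 (log2 -0.77, SE 0.15, adjusted p = 0.00391). The count of risen genes was 4 without Hdac1/2 cKD replicate 1, 2 or 3. Of 41 homeobox factors 6 rose and 2 fell (14.6% and 4.88%), with a median of 0.46. Their median NC level was 28.9, and the level bin of 25.1 to 54.3 counts had a median of 0.25, with 7.12% called higher. Esx1, a placental and germ cell homeobox gene of the X chromosome, stood at 34.9, 31.8 and 20.1 in NC and 228, 92.6 and 169 in Hdac1/2 cKD (log2 2.40, SE 0.45, adjusted p = 0.00328), and Hhex rose from 275 ± 19.3 to 473 ± 7.94 while its mean in Sin3a KD was 129 (log2 1.86, SE 0.17, adjusted p = 1.93e-05). The count of homeobox genes that rose was 3 without NC replicate 1 or Hdac1/2 cKD replicate 2, 2 without Hdac1/2 cKD replicate 1 or 3 and 2 with lane in the model. Of 42 SOX, forkhead, GATA and T-box factors 6 rose and 7 fell. Their median was -0.10 inside lane 2 and 0.53 inside lane 3. The T-box factor Tbx20, known from heart development, stood at 3013, 2599.8 and 2483 in NC and 659.8, 763 and 617 in Hdac1/2 cKD (log2 -1.99, SE 0.12, adjusted p = 9.11e-07), and in Sin3a KD it was at 3104. Foxk1 and Foxm1 rose, from 385 ± 91.3 to 874 ± 66.1 and from 475 ± 81.0 to 825 ± 129, as did Sox11, from 25.5 ± 15.9 to 104 ± 25.9. The counts of that list were 3 without Hdac1/2 cKD replicate 1 for higher genes and 4 without Hdac1/2 cKD replicate 2, 3 with lane in the model and 4 with equal totals for lower ones. Lower germline genes numbered 1 without Hdac1/2 cKD replicate 1 or 3. Lower homeobox genes numbered 1 without NC replicate 1 or 3 or Hdac1/2 cKD replicate 1 or 2, 0 without NC replicate 2 or Hdac1/2 cKD replicate 3, 1 with lane in the model and 1 with equal totals.

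Few RNAs of earlier stages were called higher. None of 22 genes of the two-cell stage burst rose in limma (1 at an unadjusted p under 0.05). Lower calls numbered 3 (13.6%, against 7.80% of all tested genes), and the median was -0.40. The count was 1 without Hdac1/2 cKD replicate 1, 0 without Hdac1/2 cKD replicate 3 and 0 with lane in the model. Of 29 oocyte and maternal-effect genes 1 rose and 2 fell. Khdc3, of the subcortical maternal complex, fell from 10323 ± 737 to 6014 ± 752 (log2 -0.78, SE 0.11, adjusted p = 0.000453), and Ybx2, an oocyte RNA-binding protein, fell from 425 ± 42.1 to 199 ± 32.2. The Pram-like family, repeated genes with preimplantation expression, had the lowest median of the 35 symbol classes, -0.77 over 10 genes, of which 5 fell and none rose in limma (3 at an unadjusted p under 0.05). Pramel4 stood at 10144, 8439 and 8474 in NC and 4139.8, 3805 and 3268 in Hdac1/2 cKD (log2 -1.27, SE 0.12, adjusted p = 3.21e-05), and Pramel6 and Pramel5 fell, from 6208 ± 250.1 to 3614 ± 109 and from 6831 ± 535 to 4043 ± 283. Members of this family resemble each other, so reads may be split among them wrongly. Pramel6 was at 4268 in Sin3a KD, and the test between the knockdowns did not call it (log2 -0.24, SE 0.09, adjusted p = 0.0721). Higher two-cell genes numbered 1 without NC replicate 2 or Hdac1/2 cKD replicate 3. Higher oocyte and maternal-effect genes numbered 0 without NC replicate 1 or Hdac1/2 cKD replicate 2 or 3, 0 with lane in the model and 2 with equal totals. Higher Pram-like genes numbered 1 without NC replicate 3 and 2 with equal totals.

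**Figure D4:**
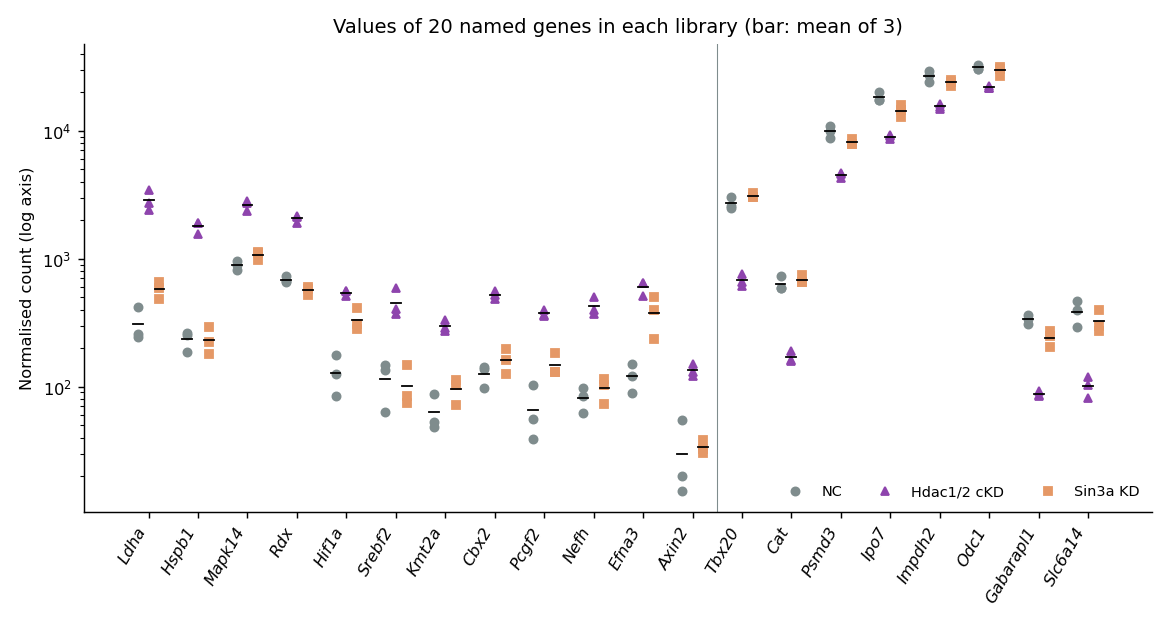
Normalised counts of 20 genes in every library, on a log axis. Points are single libraries of NC, Hdac1/2 cKD and Sin3a KD. In all 20 genes the 3 Hdac1/2 cKD points lie apart from the 3 NC points, above them in the first 12 genes and below them in the last 8.

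The largest single changes, taken by fold among called genes whose 9-library mean was 50 or more, were on low control levels for the genes that rose. Ptk7, a co-receptor of planar cell polarity, stood at 71.4, 69.7 and 90.1 in NC and 472, 739.8 and 644 in Hdac1/2 cKD (log2 2.97, SE 0.24, adjusted p = 8.39e-06). It lies at chromosome 17, 46564471 to 46629504, reverse strand (GRCm38, GENCODE vM21). Shox2, a homeobox factor of limb and heart, stood at 36.5, 32.3 and 3.93 in NC and 276, 124 and 153 in Hdac1/2 cKD (log2 3.25, SE 0.66, adjusted p = 0.00551), and lies at chromosome 3, 66971727 to 66981771, reverse strand. Zfp280c, a zinc finger gene of the X chromosome (chromosome X, 48541625 to 48594504, reverse strand), stood at 7.81, 18.9 and 18.2 in NC and 190.2, 108 and 214 in Hdac1/2 cKD (log2 3.46, SE 0.58, adjusted p = 0.00183). Abracl, which acts on actin turnover, rose from 13.8 ± 5.65 to 134 ± 33.4, and Pgpep1, a pyroglutamyl peptidase, rose from 31.6 ± 1.79 to 257 ± 46.8. Hes6, Hpcal1 and Phlda2 were also among the 15 largest rises but lost their calls in 3 to 9 of the 17 alternative settings.

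Among the genes with the largest falls, Hlf, a PAR leucine zipper factor (chromosome 11, 90336536 to 90390895, reverse strand), stood at 197, 89.1 and 93.2 in NC and 18.7, 19.6 and 7.58 in Hdac1/2 cKD (log2 -2.97, SE 0.43, adjusted p = 0.000616). Nqo2, a quinone reductase (chromosome 13, 33964687 to 33988443, forward strand), stood at 161, 161 and 48.8 in NC and 17.0, 12.5 and 21.4 in Hdac1/2 cKD (log2 -2.64, SE 0.49, adjusted p = 0.00311). Pdzd3, a scaffold protein with PDZ domains, fell from 934 ± 166 to 234 ± 52.8 (log2 -2.01, SE 0.19, adjusted p = 2.56e-05), and Enpep, a surface aminopeptidase, fell from 612 ± 131 to 149.6 ± 6.27 (adjusted p = 1.63e-05). Fam83b, which couples growth factor receptors to RAS signalling, fell from 294 ± 57.2 to 68.1 ± 27.8, and Fgd3, an exchange factor for CDC42, fell from 90.3 ± 30.4 to 21.1 ± 11.5. Zfp934 was listed at 0 in all Hdac1/2 cKD libraries, and its control values were 46.1, 131 and 23.3. Gpr161, a ciliary receptor that restrains Hedgehog signalling, fell from 6666 ± 510.3 to 3497 ± 181 (log2 -0.93, SE 0.10, adjusted p = 6.77e-05), and Cd24a, a surface glycoprotein, rose from 86.0 ± 19.6 to 441 ± 78.5 (log2 2.35, SE 0.26, adjusted p = 7.64e-05).

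Classes formed from gene symbols alone are given for a few large families. Of 298 genes named Zfp 11 rose and 20 fell (3.69% and 6.71%, median 0.09). Of 160 named Tmem 9 rose and 14 fell (5.625% and 8.75%), and of 58 Rab genes 6 rose and 4 fell (10.3% and 6.90%). Predicted genes named Gm had 15 of 620 higher and 26 lower, or 2.42% and 4.19%, against 7.81% and 7.80% of all tested genes. Kinesins had 5 of 34 higher and 3 lower, with Kif3b, from 159.6 ± 37.5 to 416 ± 71.7, and Kif13b, from 535 ± 136 to 190.1 ± 23.5, having the lowest adjusted p of each direction. Mitochondrial ribosomal proteins had 2 of 78 lower and none higher in limma (2 higher at an unadjusted p under 0.05). The Zfp counts were 6 without Hdac1/2 cKD replicate 1 and 18 with equal totals for the higher genes and 13 without Hdac1/2 cKD replicate 1, 11 without Hdac1/2 cKD replicate 2 and 12 with equal totals for the lower. Tmem genes that rose numbered 5 without Hdac1/2 cKD replicate 2, 4 without Hdac1/2 cKD replicate 3 and 5 with lane in the model. Tmem genes that fell numbered 9 without Hdac1/2 cKD replicate 2. Rab genes that rose numbered 2 without Hdac1/2 cKD replicate 1 or 3 and 3 without Hdac1/2 cKD replicate 2. Predicted Gm genes that rose numbered 9 without NC replicate 1, 7 without Hdac1/2 cKD replicate 1, 5 without Hdac1/2 cKD replicate 2 and 8 without Hdac1/2 cKD replicate 3. Predicted Gm genes that fell numbered 17 without Hdac1/2 cKD replicate 2. Kinesins that rose numbered 3 without Hdac1/2 cKD replicate 1 or 3 and 3 with lane in the model. Kinesins that fell numbered 1 without Hdac1/2 cKD replicate 2 and 1 with lane in the model. Higher mitochondrial ribosomal protein genes numbered 1 with equal totals. Lower ones numbered 1 without NC replicate 1 or 3 or Hdac1/2 cKD replicate 3, 0 without Hdac1/2 cKD replicate 1 or 2, 0 with lane in the model and 0 with equal totals.

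**Figure D5:**
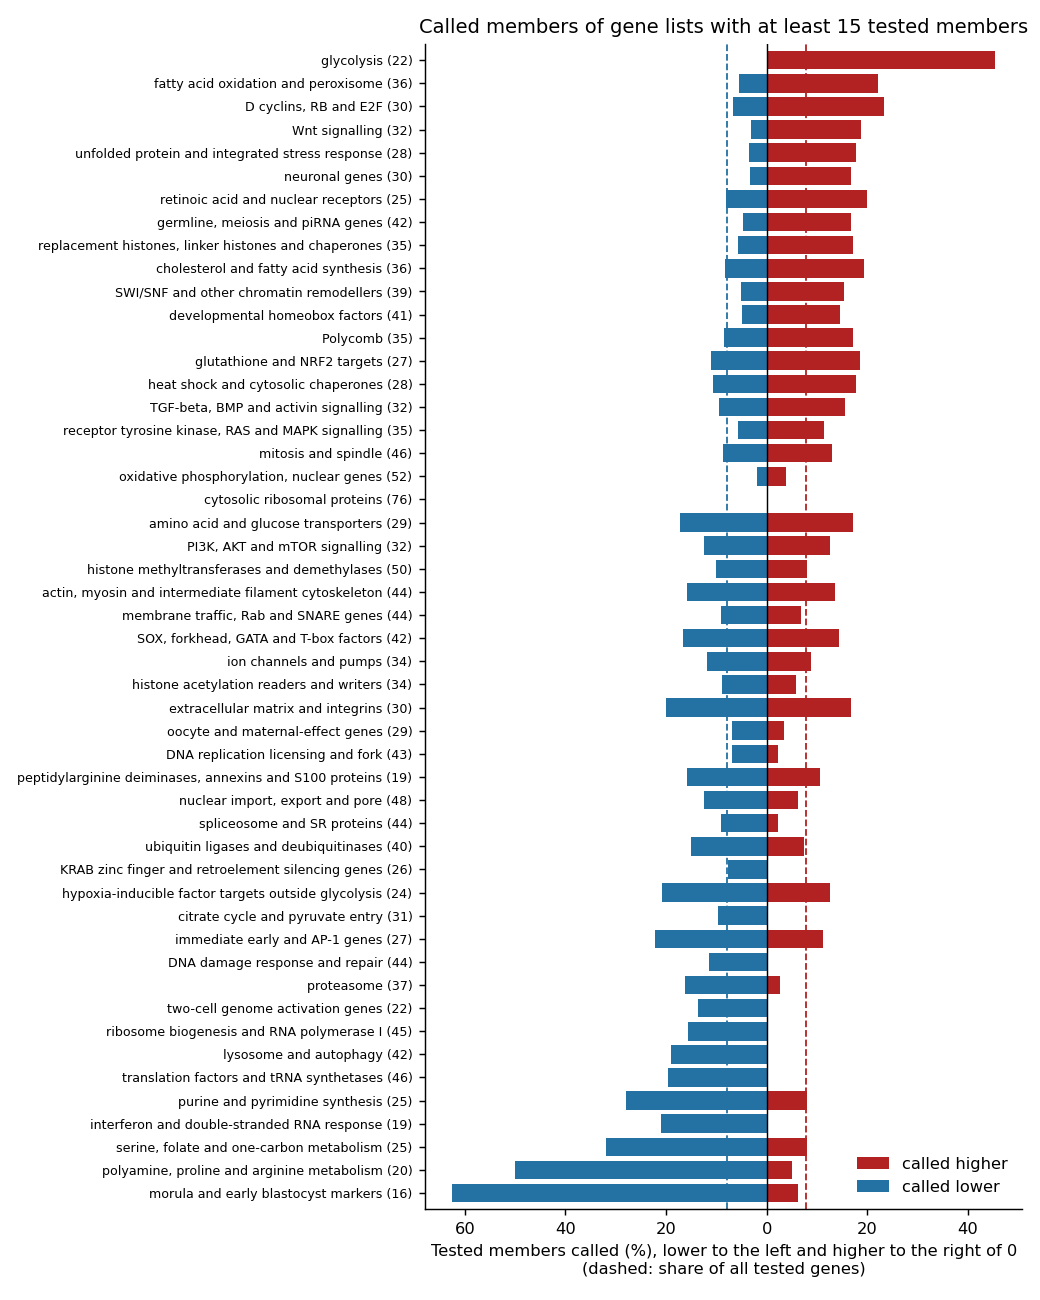
Share of called genes by list. Bars give the percentage of tested members called higher (right) and lower (left) in Hdac1/2 cKD for lists with at least 15 tested members, and the dashed lines give the shares over all 13343 genes, 7.81% and 7.80%. Glycolysis has the highest share of genes that rose and morula markers and polyamine metabolism the highest shares of genes that fell.

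The contrast between the knockdowns uses neither group's distance from NC, although NC libraries share in its variance. Hdac1/2 cKD and Sin3a KD differed at 2304 of 13343 genes (17.3%) in the same limma fit. Among the 1042 genes higher in Hdac1/2 cKD than in NC, 495 (47.5%) differed between the knockdowns, and among the 1041 lower genes 575 (55.2%) did. The median level of the higher genes was 161 in NC, 201 in Sin3a KD and 375 in Hdac1/2 cKD, and that of the lower genes was 1318, 1185 and 815. These genes were chosen on the NC and Hdac1/2 cKD libraries, so the order of those groups follows from the choice. The same Hdac1/2 cKD libraries enter the contrast with Sin3a KD. The shares of 47.5% and 55.2% therefore cannot be weighed against the 17.3%. Among lists with at least 15 measured genes, the share that differed between the knockdowns was highest in the morula markers (13 of 16), the hypoxia targets outside glycolysis (11 of 24), the one-carbon genes (10 of 25), the matrix and integrin genes (12 of 30) and the neuronal genes (12 of 30). It was lowest in cytosolic ribosomal proteins (3 of 76), and 4 of 52 genes of nuclear oxidative phosphorylation differed. Leaving out Hdac1/2 cKD replicate 2 lowered the number of genes that differed to 1497, and fitting lane as a factor lowered it to 1002.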

How the data were processed

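RNA from pools of 60 whole embryos was enriched for poly(A) RNA, made into libraries and sequenced. The table used here was deposited by the authors as one normalised count per gene and library. Salmon, DESeq2 and build GRCm38 are named in the submitters' processing notes. Their versions, the transcript annotation and how transcripts were summed are not stated there. The values are mostly not whole numbers and are therefore a signal that the authors had already scaled: of low values, 15.4% to 67.4% per library fell on a common step (tolerance 0.1), so whole reads could not be recovered and no count model was fitted. One row without a gene name (0.00543% to 0.00896% of a library) was left out. The library totals of 11.9 to 13.5 M are sums of scaled values, so the sequencing depth behind each value is unknown and no counting interval is given.

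Genes with a value of 10 or more in at least 3 of 9 libraries were kept. log2(value + 1) was fitted with limma 3.58.1 in R 4.3.3 (trended, robust variances) with 1 mean per group over all 9 libraries, which leaves 6 residual degrees of freedom. P-values were adjusted by Benjamini-Hochberg over 13343 genes, a gene was called at an adjusted p below 0.05, and errors are SD with n = 3 libraries. Adding 1 draws fold changes of low genes towards 0, while a library with a low value can widen them against the ratio of means. The code was tested on simulated data.

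The genes, the 60 lists and the 35 symbol classes were chosen with earlier results of these data known, so lists are described by counts and medians without a test. Genes are named by rule: up to 6 called members per list or class, taken by adjusted p, or 2 where none was called, Hdac1 and Hdac2, the 15 highest and 15 lowest changes among called genes that have a mean of 50 or more and separate groups (predicted genes left out), and 7 regulators whatever their p. Gpi1, Pfkl, Pkm, Tpi1, Acot7, Mat2b, Mthfd1l, Itgav, Msn, Ccnd2 and Cdk6 were named after their values were seen. Each group was labelled by the sample titles, and lanes by the library names in the descriptions. Replicate numbers recur in each group, but correlations of the deviations of same-numbered libraries were 0.0342, 0.0175 and 0.0415, under the 0.1 set for pairing, so the samples were not treated as pairs. Alternatives changed the pseudocount, filter, scaling, variance model, groups in the fit, lane and replicate block, or left out each single NC or Hdac1/2 cKD library. Promoter classes were not compared, since 72.9% of tested genes had a promoter in the RefSeq table, under the 80% required. Gene positions are from GENCODE vM21.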

Additional observations from a re-analysis of the deposited data

How the results depend on the processing

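Among 408 named genes that were called, none changed sign in any of 17 alternative settings, and 240 of them (115 higher and 125 lower) kept their call in all 17. Most were named for a low adjusted p or a large change in these same libraries. Their stable signs therefore follow largely from the choice and do not speak for other genes. The counts moved more. The number of lower genes was 676 with libraries scaled to equal totals, 600 with ordinary variances, 657 with lane in the model and 574 when both libraries alone on their lanes were dropped. With 1 library left out it ran from 640 to 1056, and the number of higher genes ran from 608 to 1114. Genes higher by at least 1 on the log2 scale numbered 390 to 710 with 1 library left out, and genes lower by at least 1 numbered 175 to 241. With equal totals 151 genes were lower by at least 1. Genes that differed between Hdac1/2 cKD and Sin3a KD numbered 1002 with lane in the model and 1384 when both lane-alone libraries were dropped. They numbered 1497 to 2748 with 1 NC or Hdac1/2 cKD library left out. No Sin3a KD library was left out on its own, so that side of the contrast was not varied in this way. The drop of the median change from the lowest to the highest level bin was 0.82, with an SD of 0.149 over the Hdac1/2 cKD replicates. It was 0.481 with a pseudocount of 5 and 0.530 to 0.961 with 1 library left out, the lowest without NC replicate 3. Of 3230 list counts under these alternatives 663 moved, either by more than 1.5 times or to or from 0, and the cause was not tested. With the replicate block 1057 genes were higher and 1083 lower. Each library's deviations correlated best with those of its own number, a hint from the data only, since the labels name no shared batch. Counting error could not be separated from the spread between libraries, and the within-group spread was widest in the lowest level bins.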

Other observations

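Position and sequence composition were compared with the calls as values only. By GC content of the longest transcript (12752 genes with 1 GENCODE match), the quintile with the lowest GC had 117 genes higher and 227 lower, and the quintile with the highest GC had 319 higher and 145 lower. The median GC was 52.9% among higher genes, 48.8% among lower genes and 49.9% among all tested genes. By exonic length, higher genes numbered 153 in the shortest quintile and 223 in the longest, and lower genes 170 and 189. The part of GC content in the calls was not tested.

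By chromosome, the X chromosome had 49 of 454 tested genes higher (10.8%) and 28 lower, and chromosome 1 had 33 of 759 higher (4.35%) and 68 lower, against 7.81% and 7.80% of all tested genes. Among genes tied to X-linked silencing and dosage, 1 of 8 rose and 2 fell: Lbr, the lamin B receptor, rose from 3615 ± 211 to 5107 ± 357 (log2 0.50, SE 0.09, adjusted p = 0.00282), and Rlim, a ubiquitin ligase known to activate Xist, fell from 4239.9 ± 298 to 2886 ± 319.6 (log2 -0.56, SE 0.11, adjusted p = 0.00397). Wtap, of the RNA methylation complex, fell from 9523 ± 467 to 6448 ± 165 (log2 -0.56, SE 0.11, adjusted p = 0.00372).

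Slc34a2, a phosphate carrier, fell from 3556 ± 337 to 2037 ± 171 (log2 -0.80, SE 0.12, adjusted p = 0.000799), and the membrane gene Tmem50b fell from 6554 ± 375 to 3654 ± 55.9 (log2 -0.84, SE 0.10, adjusted p = 0.000160). Of 20 Hnrnp genes 1 fell and none rose in limma (0 higher at an unadjusted p under 0.05): Hnrnpr, an RNA-binding protein, fell from 2272 ± 211 to 1198 ± 106 (log2 -0.92, SE 0.13, adjusted p = 0.000428). Without NC replicate 2 that class had 2 lower and 1 higher.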
